A study of Mus musculus with 24 samples.

Results

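The Ets factor genes of epithelium and stress were described here by the accessible regions that lie at them in mouse skin stem cells before and after wounding. The 10 genes were Ets1, Ets2, Fli1, Elk3, Etv5, Etv6, Elf1, Elf3, Elf5 and Ehf. Peaks of 8 deposited lists were merged into 63188 regions, each region went to the closest protein-coding gene up to 50 kb away (distance 0 inside the gene), and those of the 10 genes were kept. These were 102 regions, at 9 of the 10 genes, of 52791 regions assigned to any gene. A region near a gene is not thereby shown to act on it.

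Ets factors share a DNA-binding domain that reads a GGAA core, and they differ in the partners and signals that direct them. Ets1, Ets2, Etv5 and Elk3 are phosphorylated downstream of Ras and MAP kinases, and Elk3 works with serum response factor. Ehf, Elf3 and Elf5 form the epithelium-specific branch of the family, Etv6 is a repressor, Elf1 is widely expressed and known from lymphocytes, and Fli1 is best known from blood and endothelium.

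Open chromatin had been mapped in 24 samples of sorted mouse skin cells, the mice coming from a CD1 x C57BL/6J cross, by ATAC-seq (a transposase inserts adapters where DNA is accessible). Partial-thickness wounds gave 8 samples (3 on day 3, 2 on day 7, 3 on day 80) of cells that the labels trace to hair follicle stem cells. Full-thickness wounds gave 5 samples (3 on day 7, 2 on day 80) of cells traced to the epidermal stem cell. From unwounded skin came 4 samples of day 0 hair follicle stem cells (HFSC) and, for epidermal stem cells (EpdSC), 3 samples at day 80 and 4 at day 0. All groups carried the reporter R26-YFP and an inducible Cre: Krt19-CreER in the unwounded and partial-thickness groups, Sox9-CreER in the full-thickness groups. Krt19 and Sox9 are both known from the hair follicle, and neither the gates of the sort nor the age of the mice is given in the sources used here. The partial-thickness lists below are therefore set against the HFSC list and the EpdSC lists from mice of the same genotype, and the full-thickness lists against EpdSC lists from mice of another Cre line.

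Each group came as 1 peak list, so presence or absence of a region has no replicate error and no test between groups was run. The lists held between 29365 and 37214 peaks, and read depth is unknown. The weakest peak kept had a −log10 p between 7.86 (day 80 epidermis) and 40.2 (day 7 partial-thickness), so a weak region can be in one list and not in another at equal signal. The day 0 EpdSC list was assigned by the name it was deposited under, although its peak names carry a day 7 control tag. Regions near blood markers numbered 11, between 4 and 5 in each wound list, 5 in the day 80 EpdSC list, 2 in the day 0 EpdSC list and 0 in the HFSC list, with 0 regions in any list at 4 of the 8 blood genes (Cd4, Cd74, Itgax and Csf1r). The 37 regions near endothelial markers were 15 to 20 in the wound lists, against 12 in the HFSC list and 11 in each EpdSC list, with 0 at Kdr, 1 of the 8 genes. Fibroblast markers had 11 regions and melanocyte markers 24, with the most in the HFSC list (7 and 15). Marker genes of the labelled types all had regions (7 of 7 basal keratinocyte, 8 of 8 hair follicle). The 91 regions near hair follicle markers had 54 in the HFSC list and 31 in the day 0 EpdSC list. Of 66 regions near basal keratinocyte markers, the HFSC list held 34, the day 80 EpdSC list 33 and the day 0 EpdSC list 16. The part of cell makeup in the results below was not tested.

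RefSeq start sites show where the promoters of these genes stood relative to the accessible regions. The RefSeq promoter table (GRCm38.p6, the assembly of mm10) matched 7 of the 10 genes with 10 start sites, and 7 of these lay inside a region. Of all 32851 RefSeq start sites, 40.5% did. The start sites of Ets2, Elf3 and Etv6, the upstream start of Etv5 and both starts of Elf1 lay in regions held by all 8 lists. The downstream start of Elf5 lay in a region of the day 7 full-thickness list alone. The upstream start of Elf5, the start of Elk3 and the downstream start of Etv5 lay in no region of any list. The downstream Etv5 start, at 22438368, lay just outside the region of the upstream start, 22438475 to 22440637, which all 8 lists held. The windows below, from 250 bases before the start to 50 after it, contrast starts in all lists (Elf3, Ets2), a start in 1 list (Elf5, downstream) and a start in none (Elk3). Each runs 5′ to 3′ along the gene, and capitals mark the Ets core GGAA or its reverse complement TTCC.
Elf3, chr1:135258423-135258722, minus strand: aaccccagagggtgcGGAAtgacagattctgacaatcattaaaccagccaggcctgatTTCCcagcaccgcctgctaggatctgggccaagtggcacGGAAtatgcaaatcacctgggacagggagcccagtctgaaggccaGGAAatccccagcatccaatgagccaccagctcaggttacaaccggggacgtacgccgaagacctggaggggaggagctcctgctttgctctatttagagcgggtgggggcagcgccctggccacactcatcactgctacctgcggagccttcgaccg
Ets2, chr16:95702157-95702456, plus strand: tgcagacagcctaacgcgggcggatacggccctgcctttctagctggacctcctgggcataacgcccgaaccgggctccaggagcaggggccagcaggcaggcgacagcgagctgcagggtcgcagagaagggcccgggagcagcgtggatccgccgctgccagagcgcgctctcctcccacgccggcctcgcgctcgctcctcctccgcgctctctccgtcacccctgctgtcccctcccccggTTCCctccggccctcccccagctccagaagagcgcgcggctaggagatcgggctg
Elf5 downstream start, chr2:103423818-103424117, plus strand: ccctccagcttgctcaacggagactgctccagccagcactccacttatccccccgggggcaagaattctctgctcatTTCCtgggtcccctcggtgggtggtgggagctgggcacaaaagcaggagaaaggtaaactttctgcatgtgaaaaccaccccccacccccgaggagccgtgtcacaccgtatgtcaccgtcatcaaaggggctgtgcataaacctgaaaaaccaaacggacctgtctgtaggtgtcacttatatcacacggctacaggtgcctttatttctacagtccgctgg
Elk3, chr10:93311110-93311409, minus strand: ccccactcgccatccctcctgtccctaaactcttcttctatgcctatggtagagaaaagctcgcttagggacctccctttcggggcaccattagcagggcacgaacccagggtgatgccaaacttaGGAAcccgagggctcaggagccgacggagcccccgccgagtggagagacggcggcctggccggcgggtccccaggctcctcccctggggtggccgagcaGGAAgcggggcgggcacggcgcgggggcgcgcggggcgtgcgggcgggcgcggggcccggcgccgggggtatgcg
Elf3 holds 4 cores, Elk3 2, and Ets2 and the Elf5 window 1 each, on both strands together. Among all 32851 RefSeq windows, 96.0% hold at least 1 and the median is 3, so the core does not set these windows apart. The longer Ets sequence CCGGAAGT, which contains the core, is in 3.89% of all windows and in 0 of the 10 windows of these genes. The AP-1 sequence TGANTCA, its own reverse complement, is in 7.81% of all windows and among these 10 in that of the downstream Elf1 start. These are letter matches, not shown binding sites.

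Counted gene by gene, the family ranged from Ets2 with 20 regions to Fli1 with 0. Only 0.872% of the 21900 protein-coding genes had 20 regions or more, and genes with any region had a median of 2. Of the 102 regions, 57 lay inside a gene (55.9%, against 69.2% of all assigned regions). Regions in all 8 lists numbered 22, or 21.6% (exact 95% Clopper-Pearson interval 14.0 to 30.8), beside 24.4% of all assigned regions. Regions in a single list numbered 21 (20.6%, beside 24.9%). Regions in all lists had strong peaks and regions in 1 list weak ones: the median of the score percentile, which is the share of a list's own peaks that score no higher, was 77.0 and 24.7 (73.3 and 16.8 over all assigned regions). In the 22 regions of all lists the peak summits of the 8 lists lay within a median of 161 bp (61 to 652). These intervals, here and later, cover counting error alone, and regions of 1 gene are not independent of each other. At the edge of the 50 kb window, an Ets2 region in 6 lists lay just inside, 49978 bp away, and an Etv5 region in 4 lists just outside, at 53291 bp.

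**Figure D1:**
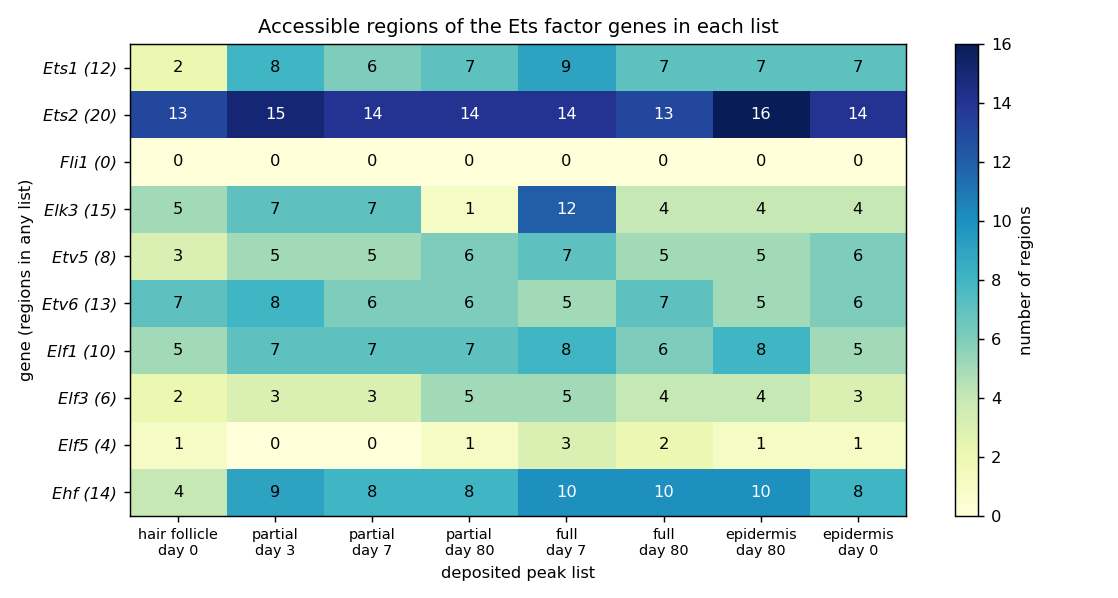
Number of accessible regions assigned to each Ets factor gene (rows, with the number in any list in brackets) in each of the 8 deposited peak lists (columns), with shading from 0 to 16. Ets2 holds 13 to 16 in every list, Fli1 holds 0, Ets1 and Ehf are lowest in the HFSC list, and Elk3 has 12 in the day 7 full-thickness list and 1 in the day 80 partial-thickness list.

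In unwounded skin the number of regions differed most between the 2 stem cell types, within this family, at Ets1 and Ehf. Ets1 (gene ID 23871, chromosome 9, 32636241 to 32757820), a proto-oncogene factor, had 2 regions in the HFSC list and 7 in the day 0 EpdSC list. Ehf (gene ID 13661, chromosome 2, 103263431 to 103303275), an epithelial factor, had 4 against 8. Etv5 (gene ID 104156, chromosome 16, 22381313 to 22439570), a factor of the PEA3 group known from FGF signalling, had 3 against 6. Ets2 (13 and 14), Elf1 (5 and 5), Elf3 (2 and 3), Elf5 (1 and 1), Elk3 (5 and 4) and Etv6 (7 and 6) differed by at most 1 region. Equal counts did not mean equal regions, since 4 of the 7 hair follicle regions of Etv6 were absent from the day 0 EpdSC list and 3 of its day 0 EpdSC regions from the HFSC list. Counted by regions in 1 of the 2 lists alone, Etv6 thus exceeded Ehf (1 and 5) and Ets1 (0 and 5).

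In all, 12 of the 102 regions were in the HFSC list and not the day 0 EpdSC list (11.8%, interval 6.23 to 19.6), beside 15.8% of all assigned regions. In the other direction 24 were in the day 0 EpdSC list and not the HFSC list (23.5%, interval 15.7 to 33.0), beside 18.2%. Both intervals include the background value. The 2 lists had 30 regions in common of 66 in either (45.5%), against 47.7% for all assigned regions. Ets1 and Ehf together gave 10 of the 24. With the upper 50% of each list's peaks by score, the hair follicle regions absent from day 0 epidermis numbered 4. The background share under that setting is not given.

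Ets1 showed the contrast at 4 regions inside the gene that every list held but the HFSC list. They lie at 32709583 to 32711565, 32730341 to 32732593, 32743267 to 32744452 and 32749297 to 32750491. The strongest of them, at 32730341, stood at percentile 56.6, 58.2 and 89.7 on days 3, 7 and 80 of the partial-thickness wound, at 71.9 and 92.6 on days 7 and 80 of the full-thickness wound, and at 96.7 and 96.1 in the EpdSC lists of days 80 and 0. The authors' fold enrichment over local background for the best peak of each list there was 7.21, 9.22, 9.94, 8.25, 12.6, 10.9 and 10.1 in the same order. The summit lay at 32730812 in the day 3 partial-thickness and day 7 full-thickness lists. In the other lists that held the region it lay between 32732031 and 32732160. These values therefore describe the merged region and not 1 site followed over the wound. The percentile of the region was high in the epidermal and day 80 lists and near the middle of the list at days 3 and 7 of the partial-thickness wound. Another Ets1 region, at 32645121 to 32646123, was in both EpdSC lists and both day 80 wound lists and in no list of day 3 or 7. Its −log10 p in those that held it ran from 8.04 to 34.5. The weakest peak kept was at 39.7 and 40.2 on days 3 and 7 of the partial-thickness wound. On day 7 of the full-thickness wound it was at 32.2. The part of these thresholds was not tested. The region at 32695096 to 32696534 was in all 8 lists, at percentiles from 79.7 to 94.4 (93.7 in the HFSC list). It was the only 1 of the 9 regions inside Ets1 that the HFSC list held.

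Ehf had 3 regions of the same kind, in every list but the HFSC list. One covers the high-coordinate end of the gene (103302099 to 103304229), one lies inside it (103264085 to 103265506), and one lies 23798 bp away (103238519 to 103239633). At the gene-end region the percentiles were 67.3, 80.1 and 72.4 on days 3, 7 and 80 of the partial-thickness wound, 86.2 and 45.3 on days 7 and 80 of the full-thickness wound, and 47.8 and 45.9 in the EpdSC lists of days 80 and 0. It therefore ranked highest in the list of the day 7 full-thickness wound. The HFSC list did hold a region in Ehf at 103271109 to 103272791, but as a weak peak, at percentile 7.52 with fold enrichment 6.80, while the other lists had it at percentiles from 86.8 to 99.0. A region 36009 bp from Ehf (103225910 to 103227422) went the other way: it was in the HFSC list (percentile 62.1) and the day 3 and day 7 partial-thickness lists (41.6 and 41.3) and in no other list. It was 1 of 2 regions in the hair follicle and both early partial-thickness lists with no EpdSC list (1.96%, beside 3.03%), with 1 at Elf1.

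Regions missing from the HFSC list alone numbered 11 of 102 (10.8%, interval 5.51 to 18.5), beside 4.74% of all assigned regions, and Ets1 and Ehf gave 7 of them. Etv5, Etv6, Elf1 and Elf3 gave 1 each. This class was formed after the values had been seen. It numbered 3 when 50% of a region was required to be covered and 5 in the upper 50% of peaks, without background shares for these settings.

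**Figure D2:**
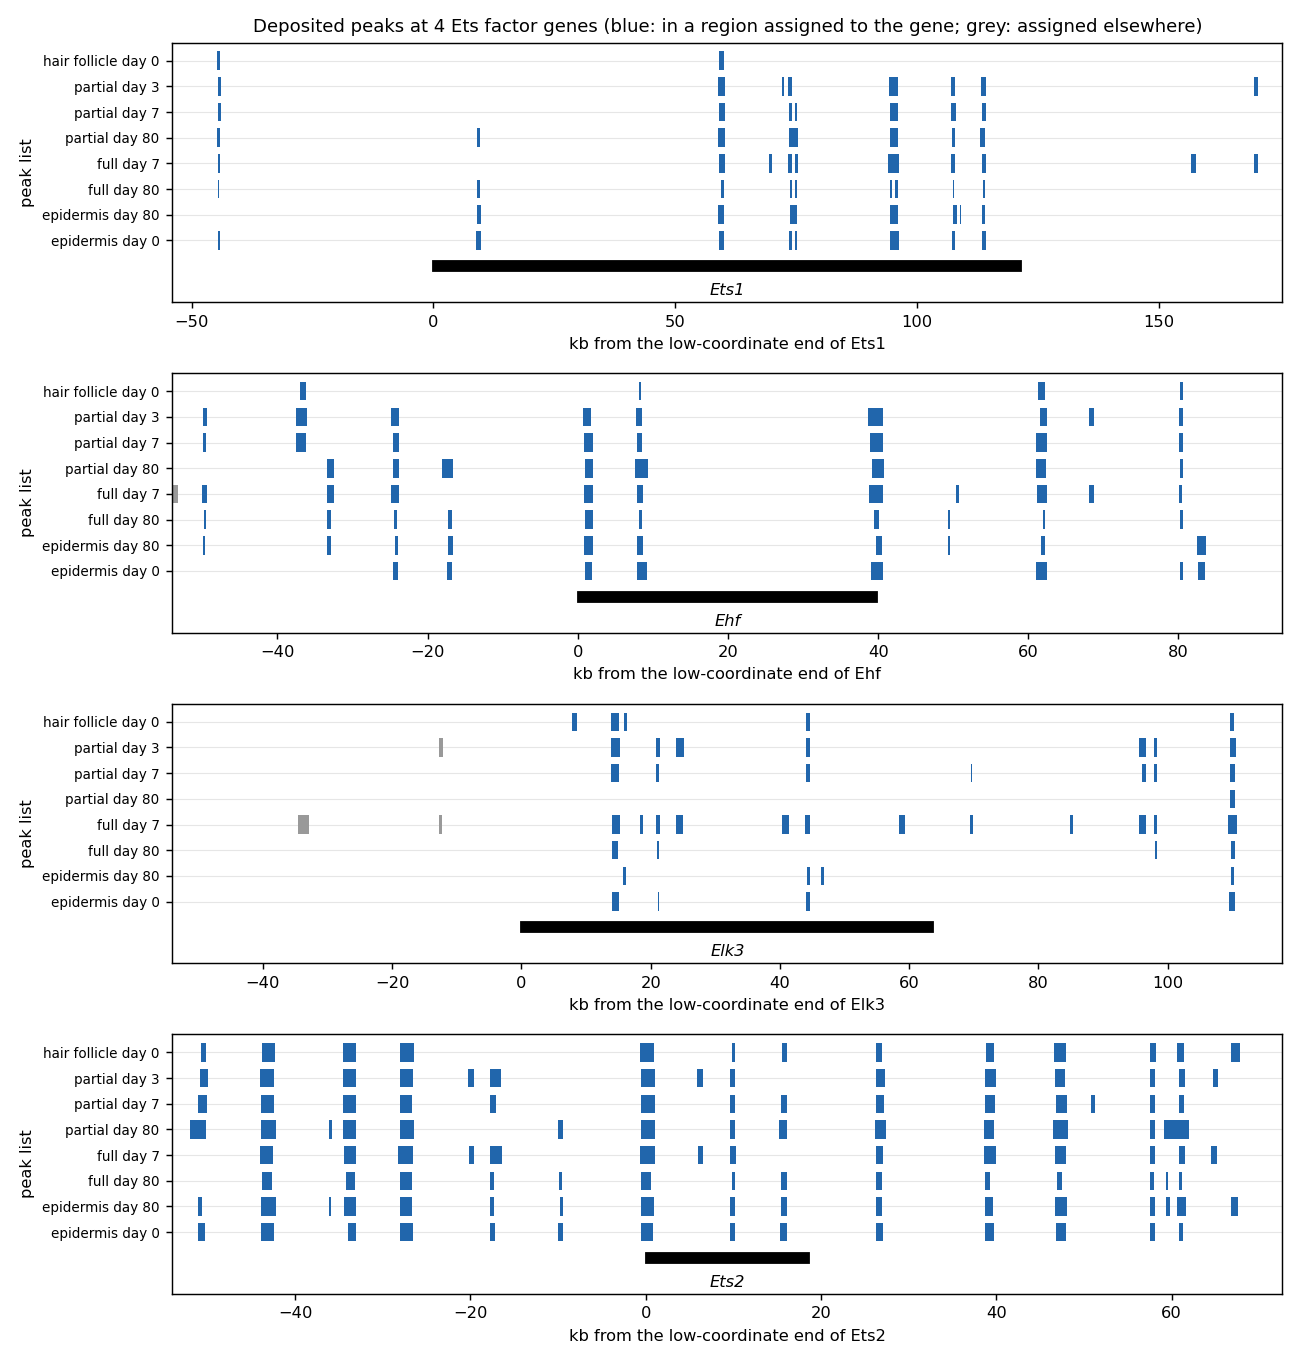
Deposited peaks (bars, true width) in each list along Ets1, Ehf, Elk3 and Ets2, against distance in kb from the low-coordinate end of the gene (black bar). Blue peaks belong to a region assigned to the gene and grey peaks to one assigned elsewhere or beyond 50 kb. In the HFSC list 4 Ets1 and 3 Ehf regions are missing that all other lists hold, and Elk3 is densest in the day 7 full-thickness list.

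The regions common to all lists were often at an extreme of their range in the HFSC list, in either direction. Of the 22 regions in all 8 lists, 11 had their lowest score percentile in the HFSC list (50%), beside 21.8% of all 12877 such regions, and 7 had their highest there (31.8%, beside 9.2%). Their median percentile in the HFSC list was 63.6, against 68.5 for all such regions. The EpdSC list of day 0 was lowest at 4 of the 22 (18.2%, beside 21.3%), the day 3 partial-thickness list at 1 (beside 7.34%) and the day 7 partial-thickness list at 0 (beside 3.81%). The day 80 partial-thickness, day 7 full-thickness and day 80 full-thickness lists were lowest at 2 each, and day 80 epidermis at 0. These counts, too, were chosen after the values had been seen, and Ets2 alone gave 10 of the 22 regions. An extreme can rest on a small difference: the Ets2 start region was lowest in the HFSC list at 57.2, beside 60.9 in day 0 epidermis. Ets2 had regions lowest and regions highest in the HFSC list. Ets2 (gene ID 23872, chromosome 16, 95702407 to 95721049), an Ets1 relative that Ras signalling activates, had 10 of its 20 regions in all lists. The region 7572 bp from the gene (95728621 to 95729787) stood at percentile 24.0 in the HFSC list, against 93.6 to 99.3 in the other 7 lists, with fold enrichment 8.03 in the HFSC list and 11.1 to 15.0 in the others. Those at 95741030 to 95742389 and 95748868 to 95750565 stood at 3.50 and 25.2 in the HFSC list and at 43.7 or more elsewhere. Other Ets2 regions ran the other way. That at 95667906 to 95669418 stood at 97.1 in the HFSC list, with 63.5 to 91.1 in the other lists, and those at 95674167, 95759912 and 95761564 were also highest in the HFSC list (84.9, 90.4 and 92.5). The start region of Ets2 was at similar percentiles in all lists (57.2 to 76.3). The start region of Elf3 (gene ID 13710, chromosome 1, 135253574 to 135258472), a factor of differentiating epithelia, was at 19.6 in the HFSC list and at 44.8 to 86.1 in the others, and that of Etv5 stood between 93.5 and 99.6 in all 8. A region inside Etv5 (22428492 to 22430436) stood at 94.3 in the HFSC list and at 17.1 to 62.8 in the others.

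**Figure D3:**
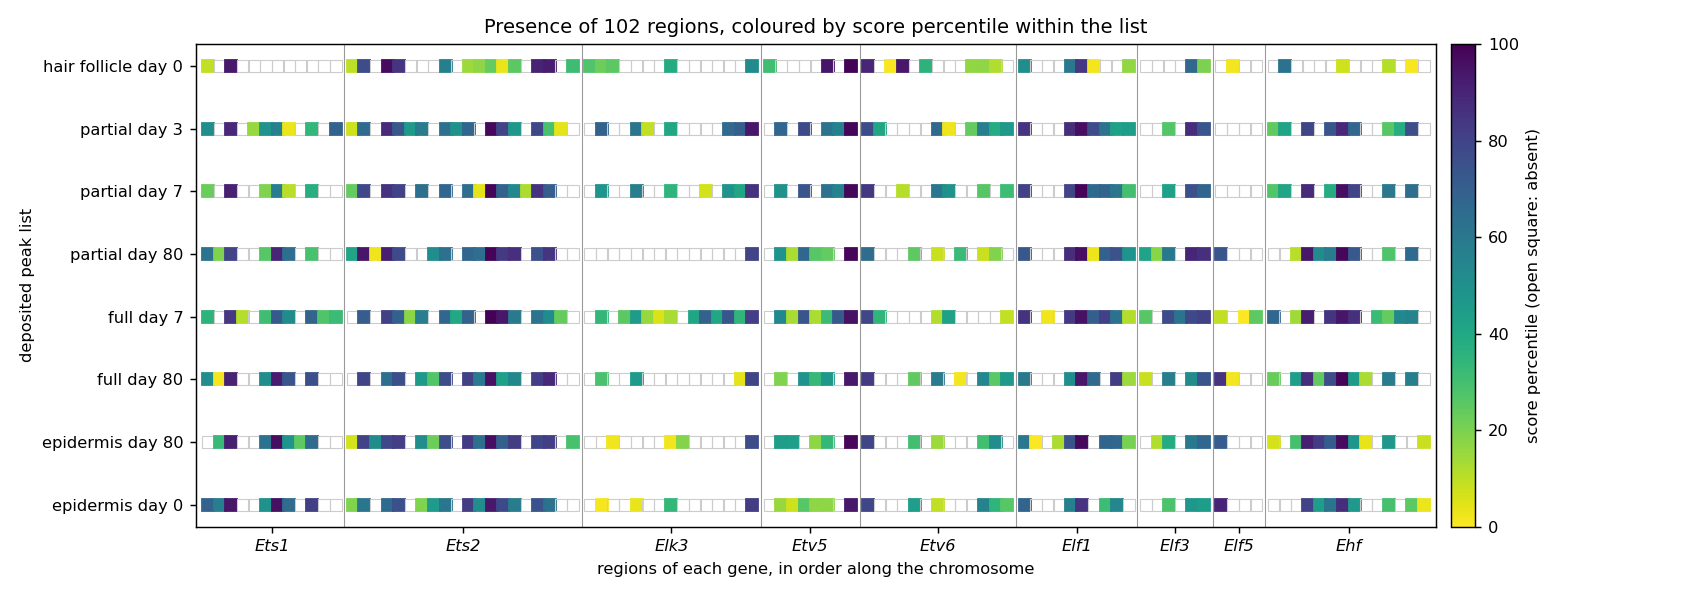
Each column is 1 of the 102 regions, grouped by gene and ordered along the chromosome, and each row is a peak list. Filled squares mark presence, coloured by score percentile within that list (0 to 100), and open squares absence. The hair follicle row has low percentiles at most of its Ehf regions and at the 3 Ets2 regions next beyond the gene (3.50 to 25.2), and Elk3 has 1 filled square in the day 80 partial-thickness row.

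Along the partial-thickness wound the cells descend, per the labels, from hair follicle stem cells. The 7 regions of Ets1 and Ehf described above, which the HFSC list alone lacked, are in the day 3 list by the definition of that class. Ets1 had 2 regions in the HFSC list and 8, 6 and 7 at days 3, 7 and 80 of the partial-thickness wound. Ehf had 4, then 9, 8 and 8. The day 3 list held 29 of the 102 regions that the HFSC list did not (28.4%, interval 19.9 to 38.2), beside 24.7% of all assigned regions. Ets1 and Ehf gave 11 of these 29, which include those 7. The HFSC list held 9 that the day 3 list did not (8.82%, beside 12.4%), 3 of them at Etv6. Both lists held 33 of the 71 in either (46.5%, against 48.1% for all assigned regions). By day 80 the partial-thickness list held 25 regions that the HFSC list lacked (24.5%, beside 22.1%), and the HFSC list 12 that it lacked (11.8%, beside 14.4%). An Etv6 region at 134091011 to 134091966 was the strongest of the hair follicle regions missing at day 3, at percentile 93.8 in the HFSC list. It was otherwise in the day 7 partial-thickness list alone, at 11.3.

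The day 7 partial-thickness list was set against day 0 epidermis. It held 11 regions that day 0 epidermis lacked (10.8%, interval 5.51 to 18.5), beside 18.3% of all assigned regions. The reverse number was 9 (8.82%, beside 10.6%). Both lists held 45 of the 65 regions in either (69.2%), against 57.2% for all assigned regions. The number absent from day 0 epidermis was 20 under 50% coverage, with no share of all assigned regions given for that rule. Elk3 gave 3 of the 11, Etv6, Elf1 and Ehf 2 each, and Ets2 and Etv5 1 each.

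The day 7 full-thickness list held more regions of these genes than any other list, 73 of the 102 (71.6%), beside 61.2% of all assigned regions. Of these, 28 were not in day 0 epidermis (27.5%, interval 19.1 to 37.2), beside 23.8%, and 9 day 0 epidermal regions were absent from it (8.82%, beside 11.7%). In the upper 50% of peaks 16 regions were in the day 7 full-thickness list and not in day 0 epidermis. No share of all assigned regions is given for that setting. The lists of the 2 wound types differed at day 7. In the partial-thickness list and not the full-thickness list were 6 regions (5.88%, beside 9.66%). In the full-thickness list and not the partial-thickness list were 23 (22.5%, interval 14.9 to 31.9, just above the 14.1% of all assigned regions). The groups also differ in Cre line, traced origin and number of samples, which cannot be told apart from wound type. Regions of the day 7 full-thickness list alone numbered 11 (10.8%, beside 5.56%), of which Elk3 had 4, Ets1 and Elf5 2 each, and Elf1, Elf3 and Ehf 1 each. Apart from the Elf3 region, at score percentile 61.8, they stood at 0.404 to 40.7, in the weaker part of that list. The threshold of the full-thickness list lay lower, with a weakest −log10 p of 32.2 against 40.2 in the day 7 partial-thickness list. Its part in the difference between the lists was not tested.

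Elk3 (gene ID 13713, chromosome 10, 93247415 to 93311159), a serum response factor partner that represses until MAP kinase signals reach it, varied most over the lists. It had 5 regions in the HFSC list, 7, 7 and 1 on days 3, 7 and 80 of the partial-thickness wound, 12 and 4 on days 7 and 80 of the full-thickness wound, and 4 in each EpdSC list. The wound lists of days 3 and 7 thus stood above all others. The day 80 partial-thickness list held only the region 45651 bp from the gene, which was in all 8 lists. The weakest peak kept there had a −log10 p of 21.0, against 7.98 in day 80 full-thickness and 7.86 in day 80 epidermis. Outside that region, the Elk3 peaks of the latter lists had values from 8.34 to 17.5. Those of day 0 epidermis had 13.7 to 22.6 and those of the HFSC list 24.9 to 32.8. The part of the threshold in this count was not tested. Of the 15 Elk3 regions, 8 were in a day 3 or day 7 wound list and in neither day 0 list. The strongest of those in early wound lists alone, 31739 bp away (93342898 to 93343997), stood at percentiles 65.9 and 48.6 at days 3 and 7 of the partial-thickness wound and 73.4 at day 7 of the full-thickness wound, with fold enrichments of 6.53, 8.08 and 7.83. Its neighbour at 93345257 to 93345827 was in the same 3 lists and, at percentile 4.23, in the day 80 full-thickness list. Among the upper 50% of peaks Elk3 had 5 regions at day 3 and 2 at day 7 of the partial-thickness wound, 3 at day 7 of the full-thickness wound and 1 in each other list. Among 413 protein-coding genes with at least 15 regions, the counts over the 8 lists were most like those of Elk3 at Tnik (summed absolute difference 9). Auh, Garem1, Rptor and Snd1 each had a summed absolute difference of 13.

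Wound-gained regions, in a day 3 or day 7 wound list and in neither day 0 list, numbered 28 of 102 (27.5%, interval 19.1 to 37.2), beside 26.8% of all assigned regions. As a family the Ets genes were therefore at the background in this class. Elk3 had 8 of its 15, Ets1 4 of its 12, Elf3 2 of its 6 and Elf5 2 of its 4. Both Elf5 regions were in the day 7 full-thickness list alone. Such small numbers in single genes do not set any of them apart from the background. Ets1, Ets2 and Ehf had 4 each, Etv6, Elf3 and Elf5 2 each, and Etv5 and Elf1 1 each. The Etv5 region at 22434436 to 22434921 was in the day 3, day 7 partial-thickness and day 7 full-thickness lists alone, at percentiles 56.4, 56.1 and 72.1. An Etv6 region at 134147702 to 134148745 was in the same 3 lists, at 2.53, 49.2 and 43.1. The day 3 partial-thickness and day 7 full-thickness lists alone shared further regions: an Ets1 region 48017 bp away (32805837 to 32806672), an Ehf region 28221 bp away (103331496 to 103332181), 3 Ets2 regions, and 1 each inside Elk3 and Etv6. In these lists the Ets1 region stood at 68.7 at day 3 and 31.8 at day 7. The Ehf region stood at 37.6 at day 3 and 53.5 at day 7. The strongest of the Ets2 regions, inside the gene (95708301 to 95709004), stood at 49.9 at day 3 and 40.2 at day 7. None of these ranked with the strongest peaks of its list, and the Elf1 region of this class (79503552 to 79504766), in the day 7 full-thickness list alone, stood at 2.05. Of the 28 regions, 24 were in early wound lists alone (23.5%, interval 15.7 to 33.0, beside 18.6%), and 3 of these were in all 3 early lists (2.94%, beside 3.38%). Wound-gained regions that were also in the day 80 partial-thickness list numbered 2 (1.96% of 102, beside 4.91% of all assigned regions). In the day 80 full-thickness list they numbered 4 (3.92% of 102, beside 5.23%), and in day 80 epidermis 2 (1.96% of 102, beside 2.66%). The strongest Elf3 region of the 28 (135233831 to 135235215, percentile 61.8) was in the day 7 full-thickness list alone.

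Elf5 (gene ID 13711, chromosome 2, 103412098 to 103450989), a factor of mammary and placental epithelium, had few regions, and those inside the gene were in 1 list. The region at its downstream start (103423791 to 103425045) stood at percentile 0.404 of the day 7 full-thickness list, among its weakest peaks, with fold enrichment 5.77. The other (103445740 to 103446529) stood at 24.7, with fold enrichment 9.19. With lists cut to 29365 peaks the day 7 full-thickness list held 1 Elf5 region in place of 3. A region 46939 bp from Elf5, in the interval of 108822 bp between Elf5 and its neighbour Ehf, was in both EpdSC lists (percentiles 70.8 at day 80 and 89.1 at day 0), in both day 80 wound lists (73.6 partial, 84.4 full) and weakly in the day 7 full-thickness list (9.32). It was absent from the HFSC list and from days 3 and 7 of the partial-thickness wound.

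Etv6 and Elf1 carried regions of more mixed kinds. Etv6 (gene ID 14011, chromosome 6, 134035700 to 134270158) had 2 of the 4 regions in the HFSC list alone (3.92%, beside 7.44% of all assigned regions), its start region in all lists (percentiles 64.6 to 89.7), and 1 region (134111480 to 134112066) in both day 80 wound lists and both EpdSC lists alone. Elf1 (gene ID 13709, chromosome 14, 79481174 to 79582491) had 3 regions in all lists. Those at its start sites ranked at percentiles 51.0 to 85.5 (upstream) and 51.5 to 87.1 (downstream), and the other, at 79527105 to 79528426, ranked at percentiles from 84.1 to 99.0. An Elf1 region at 79534259 to 79535707 was in the HFSC list and all 5 wound lists and in neither EpdSC list. It was weak in the HFSC list (percentile 1.85) and at day 80 of the partial-thickness wound (2.93), and stood at 77.3 and 66.0 at days 3 and 7 of the partial-thickness wound and at 70.4 and 65.9 at days 7 and 80 of the full-thickness wound.

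Fli1 (gene ID 14247, chromosome 9, 32422204 to 32543432) had 0 regions in all 8 lists, although it lies beside Ets1. The interval of 92808 bp between them held 1 region, 48034 bp from Fli1 and nearer to Ets1, and on the other side the nearest region was 72350 bp away. Of 1904 protein-coding genes at least as long as Fli1, 8.40% had no region. A gene with no peak past the thresholds of these lists may still be accessible below them.

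At day 80 the wound lists were set against unwounded epidermis of the same day. The day 80 partial-thickness list held 6 regions absent from day 80 epidermis (5.88%, interval 2.19 to 12.4), beside 11% of all assigned regions, and day 80 epidermis held 11 that it lacked (10.8%, beside 8.04%). The partial-thickness and EpdSC lists of day 80 shared 74.2% of the regions in either, against 69.5% for all assigned regions. For the full-thickness list the numbers were 11 (10.8%, beside 10.7%) and 13 (12.7%, beside 9.14%), with 66.2% shared, against 68.1% for all assigned regions, so these values lay near the background. Between the wounds, whose groups also differ in Cre line and traced origin, 5 regions were in the day 80 partial-thickness list alone (4.90%, beside 10.9%). In the day 80 full-thickness list alone of the pair were 8 (7.84%, beside 9.47%). The 2 lists held 50 in common of 63 in either (79.4%), against 68.2% for all assigned regions. Under 50% coverage, a rule that thins lists of narrow peaks, the partial-thickness excess over day 80 epidermis was 17 and the full-thickness excess 5. The share of all assigned regions under that rule is not given, so these counts have no background beside them. The day 80 EpdSC list itself held 12 regions absent from day 0 epidermis (11.8%, beside 9.34%), and lacked 6 that day 0 epidermis held (5.88%, beside 7.02%).

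Wound-kept regions, those of either day 80 wound list that both EpdSC lists lacked, numbered 5 (4.90%, interval 1.61 to 11.1), beside 12.4% of all assigned regions. They were at Elk3, Etv6, Elf1, Elf3 and Elf5, 1 each. The name states the rule only, since the Etv6 and Elf5 regions were in no wound list of day 3 or 7. The Elf5 region (103375224 to 103376092) was among the weakest peaks of the HFSC list (percentile 1.85) and the day 80 full-thickness list (1.63). The count was 14 under 50% coverage, 8 in the upper 50% of peaks and 11 with the day 80 EpdSC list alone as epidermis. With a 10 kb window it was 2. The share of all assigned regions is not given for these settings, so whether the share stays low under them is not known. The class in all 5 wound lists but absent from unwounded skin held 0 regions, beside 0.771% of all assigned regions (0 of 102 has an interval up to 3.55%). Regions in an early and a day 80 wound list without any unwounded list numbered 2 (1.96%, beside 5.62%), 1 at Elk3 and 1 at Elf3. The Elf3 region 35183 bp away (135217545 to 135218391) was in the day 7 full-thickness and both day 80 wound lists, at percentiles 42.2 in the day 80 partial-thickness list, 26.2 in the day 7 full-thickness list and 8.32 in the day 80 full-thickness list. An Etv6 region (134173340 to 134173996) was the only one in the day 80 wound lists alone (0.980%, beside 0.824%), at 32.3 (partial) and 1.63 (full). Regions in both EpdSC lists and in no wound list of day 3 or 7 numbered 5 (4.90%, beside 5.22%), and 4 of them, at Ets1, Ets2, Etv6 and Ehf, were in both day 80 wound lists. The remaining one, 42605 bp from Ehf, was in the EpdSC lists alone, at 8.58 on day 80 and 2.99 on day 0. The strongest of the 5 was 16555 bp from Ehf (103245364 to 103246876), at 51.9 and 24.2 in the day 80 partial-thickness and full-thickness lists and 82.6 and 44.6 in the EpdSC lists of days 80 and 0.

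**Figure D4:**
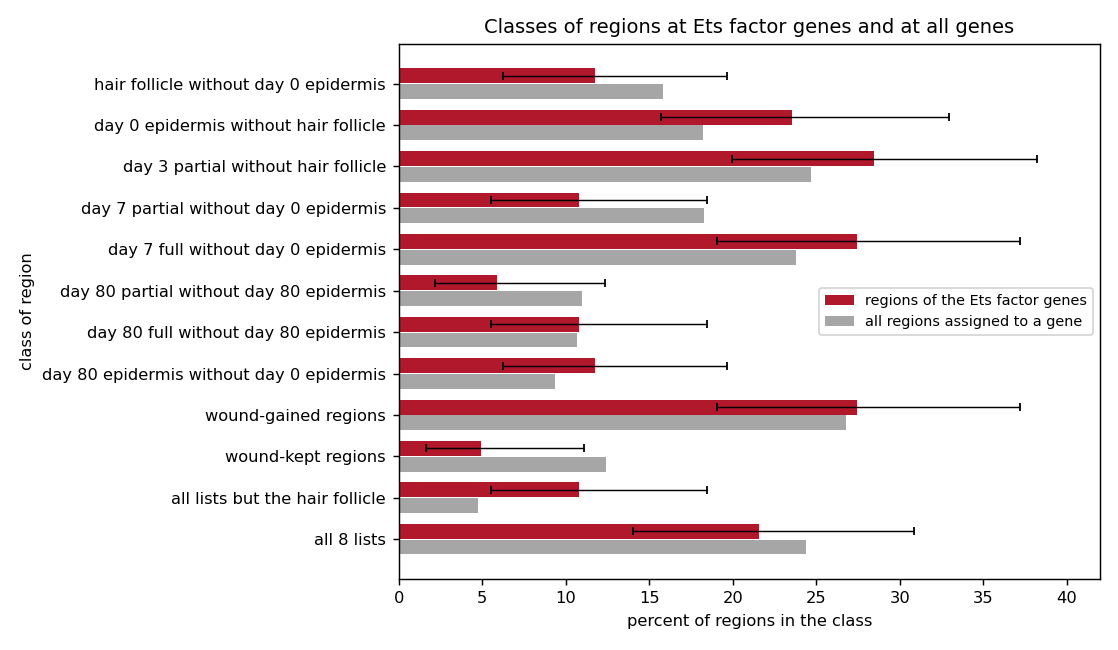
Percent of the 102 Ets factor gene regions (red, with exact 95% Clopper-Pearson intervals for counting error only) and of all 52791 assigned regions (grey) in each class of presence and absence. In 10 of the 12 classes shown the grey value lies within the red interval. It lies below the interval for regions in all lists but the HFSC list, a class formed after the values had been seen. It lies above the interval for wound-kept regions (day 80 wound lists, neither EpdSC list). Not shown are regions of the day 7 full-thickness list without the day 7 partial-thickness list, with 14.1% of all assigned regions below the interval of 14.9 to 31.9.

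The other 16 genes of the Ets family had 51 regions, with Etv2 at 0. Their regions numbered 25 in the HFSC list, 33, 32 and 28 on days 3, 7 and 80 of the partial-thickness wound, 33 and 28 on days 7 and 80 of the full-thickness wound, and 26 and 22 in the EpdSC lists of days 80 and 0. Of the 51, 9 were in the HFSC list and not day 0 epidermis (17.6%), 6 the other way round (11.8%) and 15 were wound-gained (29.4%), beside 15.8%, 18.2% and 26.8% of all assigned regions. Erg, the neighbour of Ets2 and a relative of Fli1, had 10 regions, with 4 in the HFSC list and 2 in day 0 epidermis. Etv4, the closest relative of Etv5, had 4 regions in each of the day 3 and day 7 wound lists and 2 in each other list. Spi1, a blood factor, had 2 regions in the HFSC list and in each day 3 or day 7 wound list, 1 at day 80 of the partial-thickness wound and 0 in the day 80 full-thickness and both EpdSC lists.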

How the data were processed

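Only 1 deposited narrowPeak list per group (8 lists, 24 samples) was used. Per the submitters' processing notes, the build was mm10 and the tools included MACS2 2.1.1.20160309, bedtools 2.29.2, Picard and Bowtie, without their roles. The sources used here do not say whether replicates were pooled. The deposited score of a peak equals 10 times its −log10 q within 1 unit. The deposited fold enrichment is a ratio over local background, and each deposited −log10 p or −log10 q value holds for 1 list only. These numbers from the authors served to rank, filter and describe peaks inside each list. The peak names skip numbers: 32.8% to 82.5% of the numbers up to the highest are present, per list.

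Overlapping or touching peaks were merged, and a list held a region from 1 bp of overlap (Python 3.11.15, pandas 2.3.3). Protein-coding genes and start sites came from RefSeq tables of GRCm38.p6, without exon positions, and exons, introns and UTRs were not analysed here. Genome sequence outside the promoter table was not used. A region at 2 genes went to the one it overlaps most, which concerned 2 of the 102 regions. Where several peaks of a list fell in a region, the highest score was used. The code was tested on simulated lists. The members and gene lists were chosen with earlier results of these data known. All 10 genes were described, and single regions were named by fixed patterns of presence (start sites, day 80 wound, early wound and epidermal patterns), the others after their values had been seen. One gene that the likeness rule names is not reported here. Alternatives were 50% coverage, a 10 kb window, the upper 50% of peaks by score, lists of 29365 peaks, merging over 100 bp, and the day 80 EpdSC list in place of the day 0 one.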

Additional observations from a re-analysis of the deposited data

How the results depend on the processing

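Of 67 recomputed counts, 47 stayed within 1.5 times the main count. Each is a count at these genes, and the share of all assigned regions is not given for the alternative settings. With a 10 kb window, which leaves out distal regions by construction, the genes had 62 regions, of which 14 were wound-gained and 2 wound-kept. In that window 17 regions of the day 3 partial-thickness list were absent from the HFSC list, 6 of the day 7 partial-thickness and 15 of the day 7 full-thickness list from day 0 epidermis, 3 of the day 80 partial-thickness and 5 of the day 80 full-thickness list from day 80 epidermis, and 7 of day 80 epidermis from day 0 epidermis. With the upper 50% of peaks by score, the genes had 59 regions, 8 of them wound-kept, 4 in the HFSC list and not day 0 epidermis, 16 in the day 7 full-thickness list and not day 0 epidermis, and 5 missing from the HFSC list alone. Under a rule of 50% coverage of a region by peaks, 14 regions were wound-kept, 20 were in the day 7 partial-thickness list and not day 0 epidermis, 17 in the day 80 partial-thickness and 5 in the day 80 full-thickness list and not day 80 epidermis, and 3 missing from the HFSC list alone. Under that rule Ets1 had 2 regions and Ehf 3 in the day 80 full-thickness list, whose peaks are narrow (median 460 bp). With the day 80 EpdSC list in place of the day 0 list, 11 regions were wound-kept. Equal list lengths and merging over 100 bp moved no count past 1.5 times. The class missing from the HFSC list alone was recomputed under alternatives chosen after seeing the data.

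No paired analysis was possible because each group came as 1 list, and no replicate was left out for the same reason. Read depth is unknown, and absence means no peak past the threshold of that list.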

Other observations

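The regions of 3 gene groups that work with Ets factors are given as counts, with no test between groups. Protease and matrix genes that Ets factors are known to act on had 27 regions at 8 of 10 genes, with 17, 16 and 10 on days 3, 7 and 80 of the partial-thickness wound, 22 and 12 on days 7 and 80 of the full-thickness wound, 6 in the HFSC list and 10 in each EpdSC list. Of the 27, 11 were wound-gained (40.7%, beside 26.8% of all assigned regions). Mmp13, a collagenase gene, had 2, 2 and 0 on days 3, 7 and 80 of the partial-thickness wound, 4 and 2 on days 7 and 80 of the full-thickness wound, 0 in the HFSC list, and 1 and 0 in the EpdSC lists of days 80 and 0. Plaur, the urokinase receptor gene, had 3 in the HFSC list and in each wound list of day 3 or 7, 1 and 2 in the day 80 partial-thickness and full-thickness lists, and 1 and 0 in the EpdSC lists of days 80 and 0.

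Partner genes had 104 regions, 37 of them wound-gained (35.6%, beside 26.8% of all assigned regions). Runx2 had 14, 12 and 6 regions on days 3, 7 and 80 of the partial-thickness wound, 14 and 7 on days 7 and 80 of the full-thickness wound, 7 in the HFSC list, and 4 and 5 in the EpdSC lists of days 80 and 0. Runx3 had regions in the day 3 and day 7 wound lists alone (2, 2 and 3). These 2 genes do not stand for the group. Runx1 had 12 regions in the HFSC list, 12, 7 and 5 on days 3, 7 and 80 of the partial-thickness wound, and 8 at day 7 of the full-thickness wound. Jun had 5 in the HFSC list, 5, 4 and 4 along the partial-thickness wound and 6 at day 7 of the full-thickness wound. Fosl1, Junb and Jund had 1 in every list. The 42 regions of MAP kinase feedback genes numbered 23 in the HFSC list and 27 to 29 in each other list, and 9 were wound-gained (21.4%, beside 26.8%).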
